A study of Mus musculus with 15 samples.

Results

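Integrins are transmembrane receptors made of 1 alpha and 1 beta subunit that tie a cell to its extracellular matrix and pass signals across the membrane. The 10 genes described here encode subunits that bind laminin, collagen, fibronectin or the latent form of transforming growth factor beta (TGF-beta): Itga1, Itga2, Itga3, Itga5, Itga6, Itga8, Itga11, Itgb4, Itgb6 and Itgb8. They were chosen by name, as every probe of the arrays that is not a control and carries one of these symbols, which gave 13 of the 55681 such probes. After probes were merged by gene, the members were 10 of 46287 features (genes, or probes with no gene name). All 13 member probes had a value on all 15 arrays.

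RNA came from primary mouse alveolar type II (ATII) cells, the surfactant-making epithelial cells of the alveolus, and from primary mouse lung fibroblasts. The groups were 4 arrays of ATII cells with 1 mM β-aminopropionitrile (BAPN), 4 of ATII cells with vehicle, 3 of fibroblasts with BAPN and 4 of fibroblasts with vehicle. BAPN irreversibly inhibits the lysyl oxidases, the enzymes that cross-link collagen and elastin. Treatment lasted 24 h and the vehicle was phosphate-buffered saline; the comparison asks whether the compound itself alters expression in either cell type. ATII cells formed a monolayer over 3 days in air-liquid interface culture, whereas fibroblasts went through at least 3 passages and 24 h of starvation, so cell type and culture cannot be told apart. The labels give no strain, sex or age, and they do not say whether replicates were separate animals, so each p-value covers the spread between samples and that spread may be technical. An ATII BAPN array whose label marks it as a substitute and gives no number is called number 5 here.

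On any array 65.2% to 71.2% of the spots stood well above background and 0 were saturated, and the number of arrays limits the precision. Levels are log2 intensities with each array's 75th percentile set to 0, and differences between groups of arrays are log2 changes from limma with a standard error (SE), tested at an adjusted p under 0.05. The labels were checked against markers. All 7 epithelial markers, led by Cdh1 and Epcam, were well above background on every ATII array, while 5 of the 7 were so on every fibroblast array too and Cdh1 on 0 of 7. The list's summed level ran from 700.4 to 865.9 in ATII BAPN and from 604 to 744 in ATII vehicle arrays, against 1.14 to 18.2 in fibroblast BAPN and 1.40 to 16.5 in fibroblast vehicle arrays. Sftpc, the ATII surfactant protein, was well above background on all 8 ATII arrays, but Slc34a2, another ATII marker, singled out after its values were seen, on 0 of 15 arrays. Of 7 ATII markers tested, 5 were called higher in ATII cells on BAPN and 6 on vehicle arrays, and 0 lower. The 9 listed had summed levels of 32.4 to 38.7 in ATII BAPN and 33.8 to 37.15 in ATII vehicle arrays, against 22.7 to 28.75 in fibroblast BAPN and 20.6 to 22.95 in fibroblast vehicle arrays. All 10 fibroblast markers were well above background on every ATII array. The list's summed linear level, in which the brightest genes count most, ran from 1287 to 1711 in ATII BAPN and from 1166 to 1539 in ATII vehicle arrays, against 1438 to 1877 in fibroblast BAPN and 1312 to 1802 in fibroblast vehicle arrays. Its mean log2 level did not overlap (4.90 to 5.23 and 4.89 to 5.16, against 5.68 to 6.31 and 5.62 to 6.02, in the same order). Of the 10 markers, 6 were called lower in ATII cells on BAPN and 4 on vehicle arrays, and 0 higher. All 8 macrophage and leukocyte markers were well above background on every array. The 6 of them that are not integrins had summed levels of 6.81 to 9.32 in ATII BAPN and 8.16 to 8.99 in ATII vehicle arrays, against 17.96 to 33.4 in fibroblast BAPN and 17.2 to 31.4 in fibroblast vehicle arrays. Of 7 airway and basal cell markers, 3 were called higher in ATII cells in either treatment, with summed levels of 7.49 to 22.1 in ATII BAPN and 5.66 to 14.25 in ATII vehicle arrays, against 4.83 to 7.37 in fibroblast BAPN and 4.25 to 6.03 in fibroblast vehicle arrays. Of 7 alveolar type I markers, 3 were called higher and 1 lower in ATII cells in either treatment, with summed levels of 93.2 to 114 in ATII BAPN and 77.4 to 103 in ATII vehicle arrays, against 107.2 to 163 in fibroblast BAPN and 79.3 to 104.5 in fibroblast vehicle arrays. All 5 smooth muscle and myofibroblast markers were well above background on every array. In ATII cells 1 was called higher and 2 lower on BAPN arrays, and 1 higher and 3 lower on vehicle arrays. Summed levels were 1110 to 1356 in ATII BAPN and 954 to 1243 in ATII vehicle arrays. They were 1315 to 1681 in fibroblast BAPN and 1291 to 1822 in fibroblast vehicle arrays. Of 5 endothelial markers, 1 of 2 tested was called higher in ATII cells on BAPN and 0 of 3 on vehicle arrays. The part of other cells in the values below was not tested. In such bulk samples fewer cells of a type and less RNA per cell cannot be told apart.

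Laminins are the main adhesive proteins of basement membranes. The alpha subunits Itga3 and Itga6 pair with the widely used Itgb1 or, for Itga6, with Itgb4, whose long tail anchors the hemidesmosomes of epithelia to keratin. Itga1, Itga2 and Itga11 give the collagen receptors, with Itga11 known from mesenchymal cells. Itga5 gives the main fibronectin receptor and Itga8 a receptor of smooth muscle and mesenchyme whose best known ligand is nephronectin, while Itgb6, restricted to epithelia, and Itgb8 pair with Itgav to activate latent TGF-beta.

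Of the members, 3 had a pair of probes, and the probe sequences are shown because the probes of a gene did not always give the same size of change. Each is the 60-base probe as deposited, and positions are on mouse build mm9. The brighter Itga1 probe (chr13:115756765-115758419, minus strand) and the dimmer one (chr13:115821387-115825525, minus strand) both span more than their own length in the genome, as probes across an exon junction do. The same held for the brighter Itgb6 probe (chr2:60438632-60443247, minus strand) and not for the dimmer one (chr2:60492788-60492847, minus strand). The brighter Itga6 probe (chr2:71690633-71690692, plus strand) is annotated in the files to an Ensembl transcript and the dimmer one (chr2:71694756-71694815, plus strand) to a RefSeq transcript. Which exon or untranslated region each probe lies in was not analysed here.
Itga1, brighter probe: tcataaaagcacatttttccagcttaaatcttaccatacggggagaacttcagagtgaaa
Itga1, dimmer probe: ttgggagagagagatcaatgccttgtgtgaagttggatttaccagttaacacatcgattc
Itga6, brighter probe: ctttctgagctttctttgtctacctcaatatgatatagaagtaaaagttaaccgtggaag
Itga6, dimmer probe: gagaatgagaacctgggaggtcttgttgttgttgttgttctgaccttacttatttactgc
Itgb6, brighter probe: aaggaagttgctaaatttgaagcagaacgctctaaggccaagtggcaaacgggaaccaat
Itgb6, dimmer probe: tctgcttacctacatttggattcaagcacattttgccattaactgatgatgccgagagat

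The members with a single probe lay at chr13:115626714-115626773 (minus strand, Itga2), chr9:62631667-62631726 (plus, Itga11), chr11:94906334-94906393 (minus, Itga3), chr11:115869666-115869725 (plus, Itgb4), chr15:103175022-103175081 (minus, Itga5), chr2:12028462-12028521 (minus, Itga8) and chr12:120401278-120401337 (minus, Itgb8), again on mm9. Those of Itgb4 and Itga8, the single-probe genes that differed most between the cell types in each direction, are printed here.
Itgb4, probe: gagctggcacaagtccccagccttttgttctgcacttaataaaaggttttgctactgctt
Itga8, probe: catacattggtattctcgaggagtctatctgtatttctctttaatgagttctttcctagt

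On the vehicle arrays, 9 of the 10 members differed between ATII cells and fibroblasts (limma across all 15 arrays, Benjamini-Hochberg adjusted p under 0.05). Itgb6, Itgb4, Itga2, Itga3, Itga6 and Itga5 were higher in ATII cells, Itga8, Itga1 and Itga11 were lower, and Itgb8 did not pass the test. Of all 32470 features tested, 31.0% were called in this comparison, 14.4% higher and 16.6% lower in ATII cells. The ATII and fibroblast vehicle arrays did not overlap for 8 of the 10 members and for 34.6% of features. The median log2 change was 0.75 over the members and -0.13 over all features. Quantile scaling of the arrays moved the median of all features to -0.02, and relative to the median of all features the smallest called changes among the members were 1.01 for Itga6 and 0.75 for Itga5.

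Among the laminin-binding members, Itgb4, the hemidesmosome subunit, differed most. Its level was 3.33, 2.27, 2.07 and 2.24 on the ATII BAPN arrays and 2.84, 2.22, 2.32 and 1.82 on the ATII vehicle arrays, against -2.14, -2.65 and -2.59 on the fibroblast BAPN arrays and -1.92, -2.14, -2.10 and -1.99 on the fibroblast vehicle arrays. All 8 ATII arrays lay above all 7 fibroblast arrays. The log2 change on vehicle arrays was 4.34 ± 0.27 (SE, n = 4 and 4, limma adjusted p = 5.33e-08), which is 20.2-fold. Itga3, the alpha chain of the chief laminin receptor of lung epithelium, had levels of 3.26, 2.65, 2.20 and 2.54 on ATII BAPN and 3.24, 2.46, 2.67 and 1.92 on ATII vehicle arrays, against -0.23, -1.57 and -0.34 on fibroblast BAPN and 0.34, -1.26, -0.46 and -0.10 on fibroblast vehicle arrays. The cell types again did not overlap, and the log2 change was 2.94 ± 0.40 (limma adjusted p = 7.41e-05, 7.70-fold).

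Itga6, the alpha partner of Itgb4, was bright in both cell types. Its brighter probe read 5.04, 5.27, 5.33 and 5.32 on ATII BAPN and 5.01, 5.29, 5.15 and 5.13 on ATII vehicle arrays, against 4.997, 4.56 and 4.56 on fibroblast BAPN and 4.23, 4.12, 4.34 and 4.35 on fibroblast vehicle arrays. The ATII arrays lay above the fibroblast arrays by a narrow margin, with fibroblast BAPN array 1 next to the lowest ATII array. The log2 change on vehicle arrays was 0.89 ± 0.12 (limma adjusted p = 9.47e-05, 1.85-fold). The dimmer Itga6 probe gave a larger change of 2.07 ± 0.22 (limma fit per probe, adjusted p = 7.76e-06), with levels of 4.37, 3.54, 3.85 and 3.78 on ATII BAPN and 3.89, 3.64, 3.41 and 3.31 on ATII vehicle arrays, against 2.15, 1.71 and 1.82 on fibroblast BAPN and 1.35, 1.02, 1.73 and 1.86 on fibroblast vehicle arrays. The difference between the probes' log2 changes was -1.46 on BAPN arrays (two-sided exact permutation p = 0.0571, n = 4 and 3, the smallest p this design allows) and -1.19 on vehicle arrays (exact p = 0.0286, n = 4 and 4, again the smallest). Adjusted over the 6 such differences computed for Itga1, Itga6 and Itgb6, the exact permutation values became 0.114 on BAPN and 0.0857 on vehicle arrays. With so few arrays no adjusted value could go below the threshold, so this test cannot tell whether the probes differ. Both probes placed Itga6 higher in ATII cells.

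The collagen receptors split. Itga2, the collagen-binding alpha chain known from epithelia and platelets, was higher in ATII cells, with levels of 0.43, -0.49, -0.89 and -0.10 on ATII BAPN and 0.56, -0.10, -0.54 and -0.69 on ATII vehicle arrays, against -4.10, -2.72 and -3.61 on fibroblast BAPN and -3.79, -2.27, -3.53 and -3.91 on fibroblast vehicle arrays. The groups of the 2 cell types did not overlap, and the vehicle arrays differed by a log2 change of 3.19 ± 0.42 (limma adjusted p = 6.74e-05, 9.11-fold). Itga1 was lower in ATII cells by a log2 change of -2.14 ± 0.36 on its brighter probe (limma adjusted p = 0.000444, 4.41-fold). That probe read -1.61, -1.77, -1.50 and -1.62 on ATII BAPN and -1.85, -1.41, 0.35 and -1.57 on ATII vehicle arrays, against 0.77, 0.82 and 1.16 on fibroblast BAPN and 1.24, 0.92, 1.15 and 0.77 on fibroblast vehicle arrays. ATII vehicle array 3 stood well above the other ATII arrays on this probe, though below every fibroblast array, and it was not high on the dimmer probe.

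The dimmer Itga1 probe read -4.06, -0.49, -5.08 and -4.53 on ATII BAPN and -4.12, -4.09, -4.70 and -4.25 on ATII vehicle arrays, against -2.15, -2.53 and -1.77 on fibroblast BAPN and -1.85, -1.68, -1.76 and -1.89 on fibroblast vehicle arrays. Here ATII BAPN array 3 stood apart, above every fibroblast array, while on the brighter probe it was the second lowest of all arrays. The dimmer probe did not pass on BAPN arrays (-1.39 ± 0.78, limma fit per probe, adjusted p = 0.206) and was lower in ATII cells on vehicle arrays (-2.49 ± 0.72, adjusted p = 0.0165). Itga11, the mesenchymal collagen receptor, read 1.63, 2.21, 1.81 and 0.78 on ATII BAPN and 1.60, 1.03, 2.47 and 1.83 on ATII vehicle arrays, against 4.12, 2.01 and 3.53 on fibroblast BAPN and 3.95, 2.10, 4.42 and 3.70 on fibroblast vehicle arrays. It was the only called member whose groups overlapped on vehicle arrays, because fibroblast array 2 lay within the ATII range under either treatment. Its log2 change was -1.81 ± 0.54 (limma adjusted p = 0.0212, 3.50-fold lower), and the call was lost without fibroblast vehicle array 1 (adjusted p = 0.0563), fibroblast vehicle array 3 (0.0675) or ATII vehicle array 2 (0.0657).

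Itga8, which binds nephronectin and fibronectin, had the largest fall among the members. Its levels were -0.25, -1.19, -0.85 and -0.12 on ATII BAPN and -0.11, 0.07, -1.22 and -0.36 on ATII vehicle arrays, against 2.70, 4.10 and 2.28 on fibroblast BAPN and 2.56, 4.30, 2.79 and 2.18 on fibroblast vehicle arrays. Every fibroblast array lay above every ATII array, and the log2 change was -3.37 ± 0.49 (limma adjusted p = 0.000144, 10.3-fold lower in ATII cells). Itga5, the alpha chain of the fibronectin receptor, read 4.56, 4.87, 4.97 and 5.04 on ATII BAPN and 4.47, 4.56, 4.70 and 4.69 on ATII vehicle arrays, against 3.57, 4.29 and 3.96 on fibroblast BAPN and 3.83, 3.91, 4.14 and 4.04 on fibroblast vehicle arrays. The cell types did not overlap, but the log2 change of 0.62 ± 0.15 was the smallest one called (limma adjusted p = 0.00717, 1.54-fold).

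Itgb6, the epithelial activator of latent TGF-beta, had the largest rise of all members. Its brighter probe read 3.73, 2.73, 2.11 and 2.83 on ATII BAPN and 3.37, 2.64, 2.72 and 1.87 on ATII vehicle arrays, against -6.15, -3.24 and -4.52 on fibroblast BAPN and -5.998, -4.41, -5.50 and -4.15 on fibroblast vehicle arrays. It was well above background on all 8 ATII arrays, on 2 of 3 fibroblast BAPN arrays and on 2 of 4 fibroblast vehicle arrays, so the fibroblast levels lie near the limit of detection. The log2 change was 7.66 ± 0.59 (limma adjusted p = 4.91e-07, 203-fold). The dimmer Itgb6 probe rose above background on 0 of 7 fibroblast arrays. Its ATII level exceeded the fibroblast level at least 19.5-fold on vehicle arrays. This bound sets the ATII mean against the lowest signal well above background on each fibroblast array, and it was not tested. Measured means of that probe were -0.87 in ATII vehicle and -6.79 in fibroblast vehicle arrays.

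Itgb8, the other TGF-beta activating beta chain, was close to background throughout. Its probe was well above background on 0 of 4 ATII BAPN and 2 of 4 ATII vehicle arrays, against 2 of 3 fibroblast BAPN and 2 of 4 fibroblast vehicle arrays. Levels ran from -5.55 to -5.27 in ATII BAPN and from -5.54 to -4.86 in ATII vehicle arrays, against -7.86 to -4.41 in fibroblast BAPN and -6.56 to -4.14 in fibroblast vehicle arrays. The log2 change on vehicle arrays was 0.24 with a 95% interval of -1.24 to 1.72 (limma adjusted p = 0.845), so neither a rise nor a fall of 2-fold could be told from no change.

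**Figure D1:**
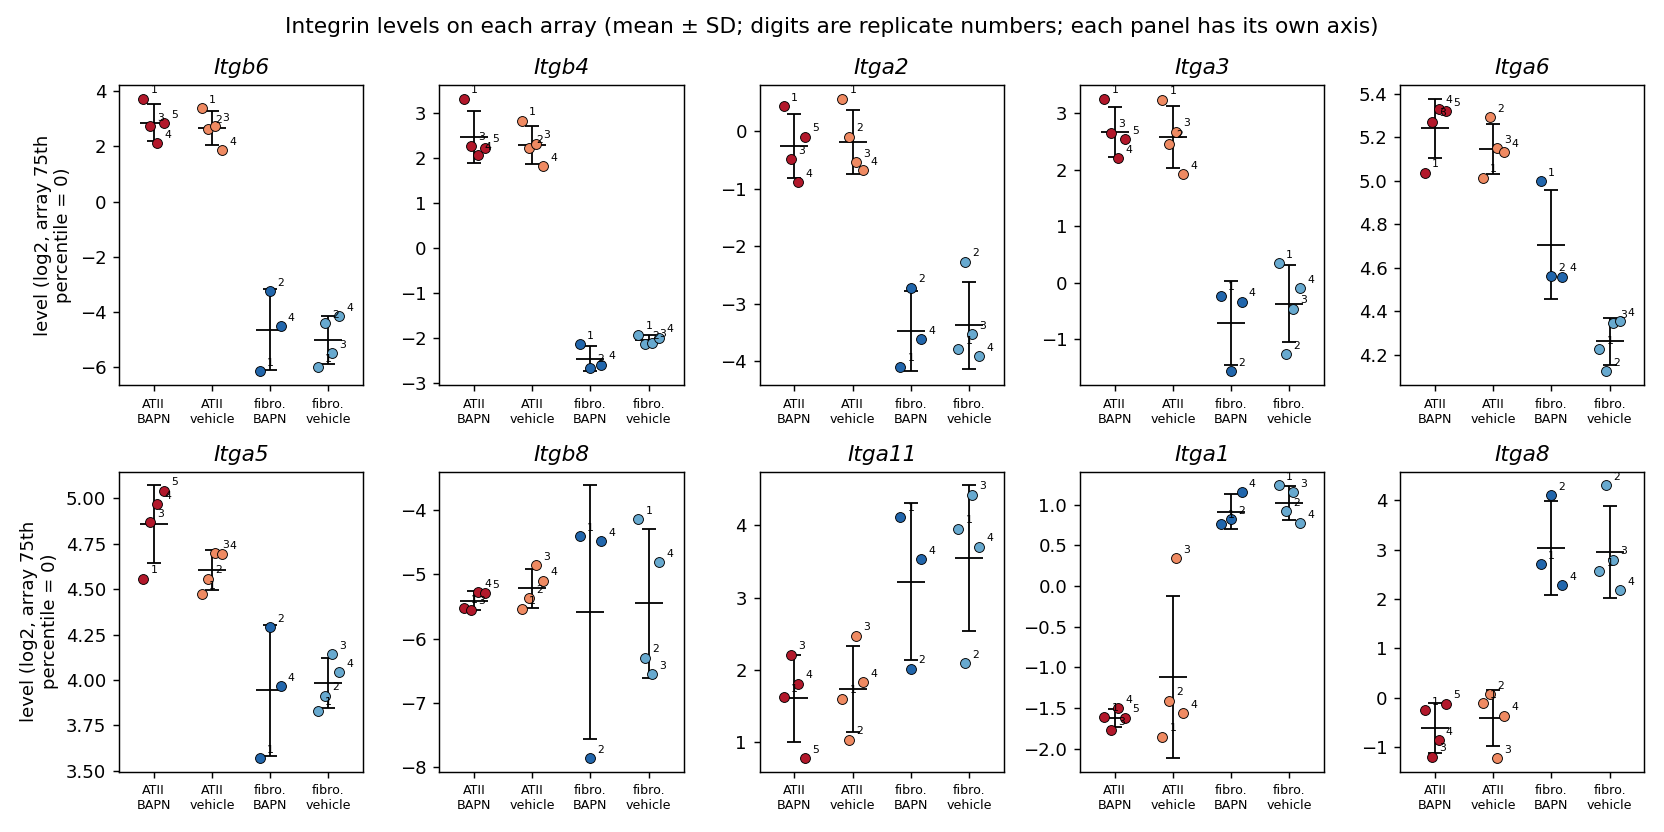
Normalized log2 level (y axis, array 75th percentile set to 0) of each integrin on each of 15 arrays, by the probe that stands for the gene; groups run along the x axis, points are arrays with their replicate number, and bars are the mean ± SD. Itgb6, Itgb4, Itga2 and Itga3 lie higher on all ATII arrays than on any fibroblast array, Itga8 and Itga1 lie lower, and Itgb8 overlaps; Itga8 is highest and Itga11 lowest on fibroblast array 2 under both treatments.

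The BAPN arrays gave the cell type comparison a second time on other arrays. Of 9 members tested, 6 were higher and 2 lower in ATII cells, while 29.0% of 32268 features were called, 13.2% higher and 15.7% lower. The cell types did not overlap for 8 members and for 34.0% of features. The log2 changes were 7.49 ± 0.64 for Itgb6, 4.94 ± 0.29 for Itgb4, 3.38 ± 0.43 for Itga3, 3.22 ± 0.46 for Itga2, 0.92 ± 0.17 for Itga5 and 0.53 ± 0.13 for Itga6 (limma adjusted p between 4.08e-08 for Itgb4 and 0.00796 for Itga6). Itga8 was lower by -3.63 ± 0.53 (limma adjusted p = 0.000168) and Itga1 by -2.54 ± 0.39 (adjusted p = 0.000244). Itga11 missed the threshold (-1.62 ± 0.59, limma adjusted p = 0.0548), and it passed without fibroblast BAPN array 2 (-2.22, adjusted p = 0.0153). With only the BAPN groups in the fit, the Itga6 call was lost (limma adjusted p = 0.0531). The dimmer Itgb6 probe exceeded its fibroblast level at least 28.1-fold, and Itgb8 was well above background on too few arrays to be tested.

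Both arms can be set side by side, since they share no array. They do share the slides and a single estimate of the spread, and several members were extreme on same-numbered arrays under both treatments. The arms are therefore not independent repeats. All 9 members tested in both had the same sign in both, and the difference between the arms, which is the interaction of cell type and BAPN, was called for 0 of 10 members and 0 of 34287 features (limma; 4731 features and 0 members had an unadjusted p under 0.05). By the probes that stand for the genes, the largest such differences were 0.60 ± 0.39 for Itgb4 and -0.40 ± 0.53 for Itga1. The dimmer Itga1 probe gave 1.10 ± 1.06, of the other sign and not called (limma fit per probe, adjusted p = 0.679). The arrays came from 2 slides, and each slide held arrays of all 4 groups. With the slide as a block 9 of 9 members were called in the BAPN arm, where Itga11 then passed (-1.93, limma adjusted p = 0.0200), and 9 of 10 in the vehicle arm, against 27.5% of features in the BAPN arm and 31.2% in the vehicle arm. Slide 1 held only number 1 of the fibroblast BAPN arrays, and slide 2 only number 4 of the ATII BAPN arrays. Each slide thus left a single array in a group of the BAPN arm, so no conclusion is drawn from calls by slide in that arm. On slide 1 alone 6 of 8 members tested were called in the vehicle arm (20.3% of features). Slide 2 alone gave 6 of 10 there (13.2%), with fewer arrays in each fit. Itga6 changed in the BAPN arm by 0.21 on slide 1 and 0.77 on slide 2. Itgb4 changed by 4.59 on slide 1 and 4.08 on slide 2 in the vehicle arm, Itga3 by 3.02 and 2.87, Itga2 by 3.68 and 2.70, Itga6 by 0.80 and 0.97, and Itga5 by 0.60 and 0.65. Itga8 changed by -3.34 on slide 1 and -3.39 on slide 2, Itga1 by -1.95 and -2.34, and Itga11 by -2.15 and -1.47.

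**Figure D2:**
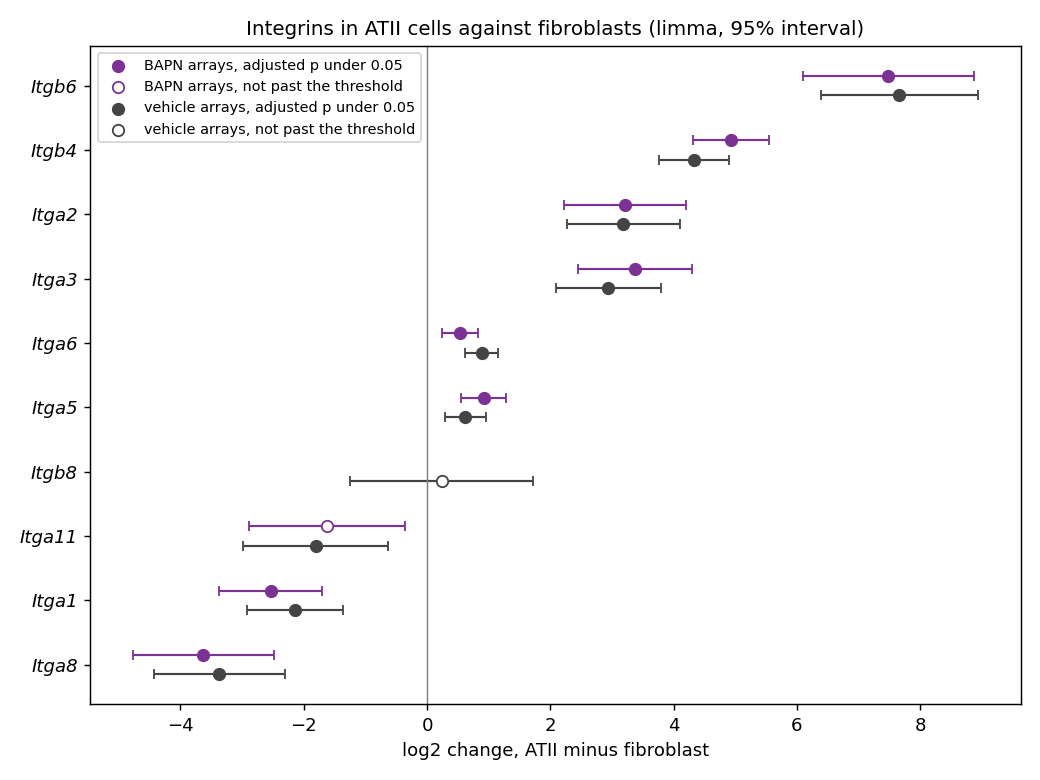
Log2 change of each integrin in ATII cells minus fibroblasts (x axis) on BAPN and on vehicle arrays; points are limma estimates, bars their 95% intervals, and filled points passed an adjusted p of 0.05. Itgb6 stands at 7.49 and 7.66 and Itga8 at -3.63 and -3.37, with each pair of intervals overlapping; Itgb8 was tested on vehicle arrays only.

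The promoters of the members were looked up because the epithelial ones moved together. RefSeq promoter windows (build GRCm38.p6, 250 bases before and 50 after the start) were found for 8 of the 10 members, in 10 windows. They were searched on both strands for CACCTG (the E-box bound by Snail and ZEB repressors), TGANTCA (the AP-1 element) and GGGCGG (the Sp1 box), and matches are in capitals below. CACCTG was in a window of Itgb6, Itga3, Itga11 and Itgb8, which is 4 of 10 windows against 20.2% of all 32851 promoters. GGGCGG was in windows of Itga2, Itga3 and Itga5, 4 of 10 windows against 35.7% of promoters, and TGANTCA in 1 Itga3 window against 7.81%. The letters CACCTG thus stood both in members higher in ATII cells and in Itga11, which was lower. Printed are the Itgb6 and Itga3 windows with CACCTG, that of Itga11, and that of Itga8, the member with the largest fall.
Itgb6, chr2:60673644-60673943, minus strand: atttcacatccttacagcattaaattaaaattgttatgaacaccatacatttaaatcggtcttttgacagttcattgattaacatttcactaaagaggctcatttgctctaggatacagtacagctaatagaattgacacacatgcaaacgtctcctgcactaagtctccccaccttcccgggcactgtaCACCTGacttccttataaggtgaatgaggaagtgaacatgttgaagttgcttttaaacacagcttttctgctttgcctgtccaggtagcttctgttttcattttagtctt
Itga3, chr11:95076665-95076964, minus strand: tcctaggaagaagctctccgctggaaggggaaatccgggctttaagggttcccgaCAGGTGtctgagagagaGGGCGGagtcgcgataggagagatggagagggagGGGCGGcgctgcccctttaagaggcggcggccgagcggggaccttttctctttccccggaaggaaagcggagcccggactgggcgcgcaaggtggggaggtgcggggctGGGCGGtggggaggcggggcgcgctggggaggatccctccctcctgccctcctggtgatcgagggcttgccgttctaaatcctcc
Itga11, chr9:62677605-62677904, plus strand: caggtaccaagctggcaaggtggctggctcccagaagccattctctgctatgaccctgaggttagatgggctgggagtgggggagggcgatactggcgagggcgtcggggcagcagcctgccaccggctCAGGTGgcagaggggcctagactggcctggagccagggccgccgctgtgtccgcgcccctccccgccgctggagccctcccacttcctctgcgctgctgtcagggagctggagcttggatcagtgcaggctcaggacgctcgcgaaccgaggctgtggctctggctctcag
Itga8, chr2:12301895-12302194, minus strand: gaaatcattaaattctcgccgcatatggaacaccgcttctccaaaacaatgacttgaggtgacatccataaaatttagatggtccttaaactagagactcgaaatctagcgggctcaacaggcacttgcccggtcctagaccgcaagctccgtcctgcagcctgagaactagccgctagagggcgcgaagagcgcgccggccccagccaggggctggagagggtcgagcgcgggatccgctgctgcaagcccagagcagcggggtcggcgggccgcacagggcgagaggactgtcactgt

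With BAPN, 1 of the 10 members passed the test in either cell type, Itga6 in fibroblasts. In ATII cells 0 of 9 members and 0 of 32045 features were called (limma; 0 members and 3230 features had an unadjusted p under 0.05), which is 0.0% of features. Groups overlapped for every member tested and did not overlap for 9.07% of features. By the probes that stand for the genes, the log2 changes ran from -0.50 (95% interval -1.28 to 0.27) for Itga1 to 0.25 (-0.08 to 0.59) for Itga5. The dimmer Itga1 probe gave the other sign, 0.75 (-0.81 to 2.30), and the dimmer Itga6 probe 0.32 (-0.15 to 0.79). Neither was called in the limma fit per probe. The intervals of Itga6 (-0.17 to 0.36) and Itga5 lay inside 2-fold in either direction, as did those of Itgb4 (-0.39 to 0.75), Itga2 (-0.99 to 0.84) and Itga3 (-0.77 to 0.95), while those of Itgb6 (-1.08 to 1.48), Itga8 (-1.26 to 0.86), Itga11 (-1.30 to 1.04) and Itga1 did not. The median log2 change was 0.09 over the members and 0.00 over all features. Itgb8 was not tested in ATII cells.

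In fibroblasts Itga6 was the only member called, 1 of 10, while 13% of 32255 features were called, 2.31% higher and 10.7% lower with BAPN. On the brighter probe it was higher with BAPN by a log2 change of 0.44 ± 0.13 (limma adjusted p = 0.0431, 1.36-fold, n = 3 and 4), and the BAPN arrays (4.997, 4.56 and 4.56) lay above the vehicle arrays (4.23, 4.12, 4.34 and 4.35). The dimmer probe gave 0.40 ± 0.23 (limma fit per probe, adjusted p = 0.307), with overlapping groups. The call was lost when any single fibroblast array was left out (limma adjusted p from 0.0597 to 0.150), and without BAPN array 1 the log2 change was 0.30. It was also lost under quantile scaling (limma adjusted p = 0.0675), on slide 2 alone (0.273), and with only the fibroblast arrays in the fit (0.153). Slide 1 held only number 1 of the fibroblast BAPN arrays, so no call is given for it.

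The spot's place on the array moved with this comparison. Of the 4193 features called, 3975 lay in columns above 82 of 164 on the array, where 24.6% of features were called, against 1.36% in the other columns. In those columns the median log2 change was 0.19 for the brightest of 5 brightness classes and -0.65 for the dimmest. The brighter Itga6 probe sits in column 155 and belongs to the brightest class. Without both fibroblast arrays numbered 2, its log2 change was 0.47 (limma adjusted p = 0.1525) and 0 features were called. With row and column medians subtracted, the Itga6 call held (0.48, limma adjusted p = 0.0320). With medians of place and brightness subtracted together, an alternative chosen after seeing the data, its log2 change was 0.29 (limma adjusted p = 0.236) and 2981 features were still called. The part of the position trend in the Itga6 value was not otherwise tested.

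The other members' changes with BAPN in fibroblasts did not pass. They ran from -0.42 (95% interval -1.04 to 0.20) for Itgb4 to 0.38 (-1.0016 to 1.76) for Itgb6, with -0.34 for Itga3, -0.32 for Itga11, -0.13 for Itgb8, -0.11 for Itga1, -0.10 for Itga2, -0.04 for Itga5 and 0.07 for Itga8. The Itgb4 groups did not overlap, with BAPN arrays from -2.65 to -2.14 below vehicle arrays from -2.14 to -1.92, though limma gave an adjusted p of 0.376. Groups did not overlap for 2 of 10 members, Itga6 and Itgb4, and for 24.0% of features. The narrowest interval among these was that of Itga5 (-0.40 to 0.32). The median log2 change was -0.10 over the members and 0.03 over all features. Except for Itga8, in column 32, the probes of these other members also lay in columns above 82. Features of the same columns and brightness class had a median of 0.19 for Itga11 and Itga5 and 0.13 for Itgb4, Itga3 and Itga1. It was -0.34 for Itga2 and Itgb6, -0.65 for Itgb8 and 0.02 for Itga8. None of these members was called with either position correction, and the part of the position trend in their values was not otherwise tested.

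**Figure D3:**
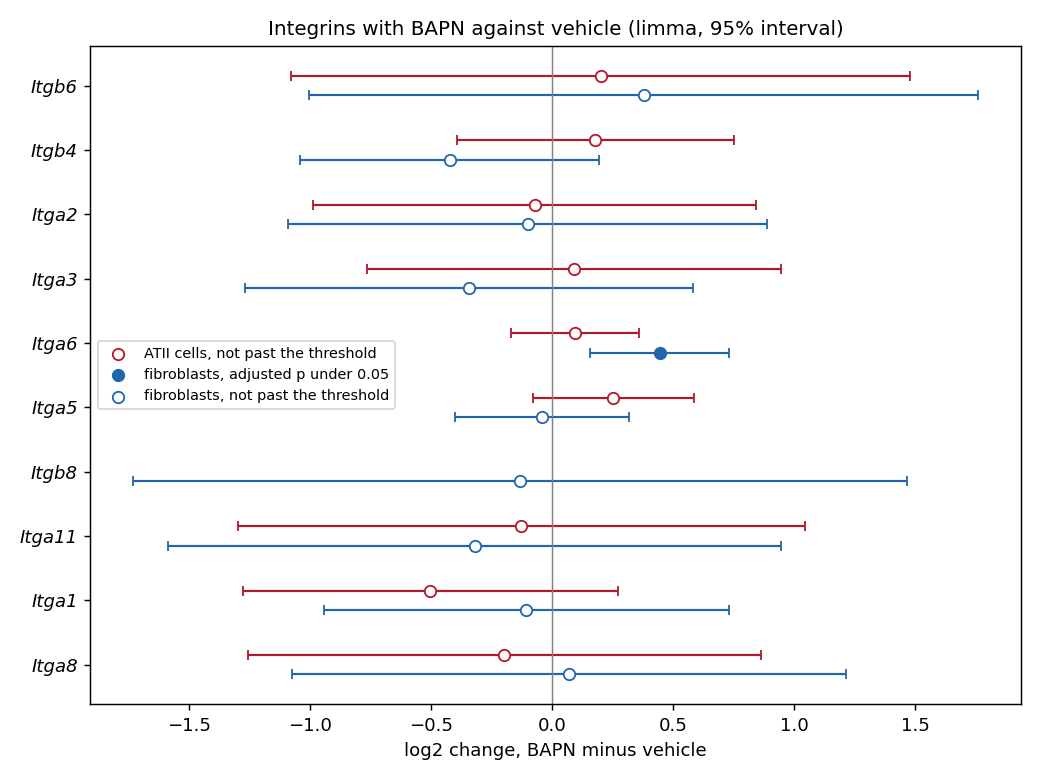
Log2 change of each integrin with BAPN minus vehicle (x axis) in ATII cells and in fibroblasts; points are limma estimates, bars their 95% intervals, and filled points passed an adjusted p of 0.05. Only Itga6 in fibroblasts, at 0.44, is filled; the intervals of the other members include 0.

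**Figure D4:**
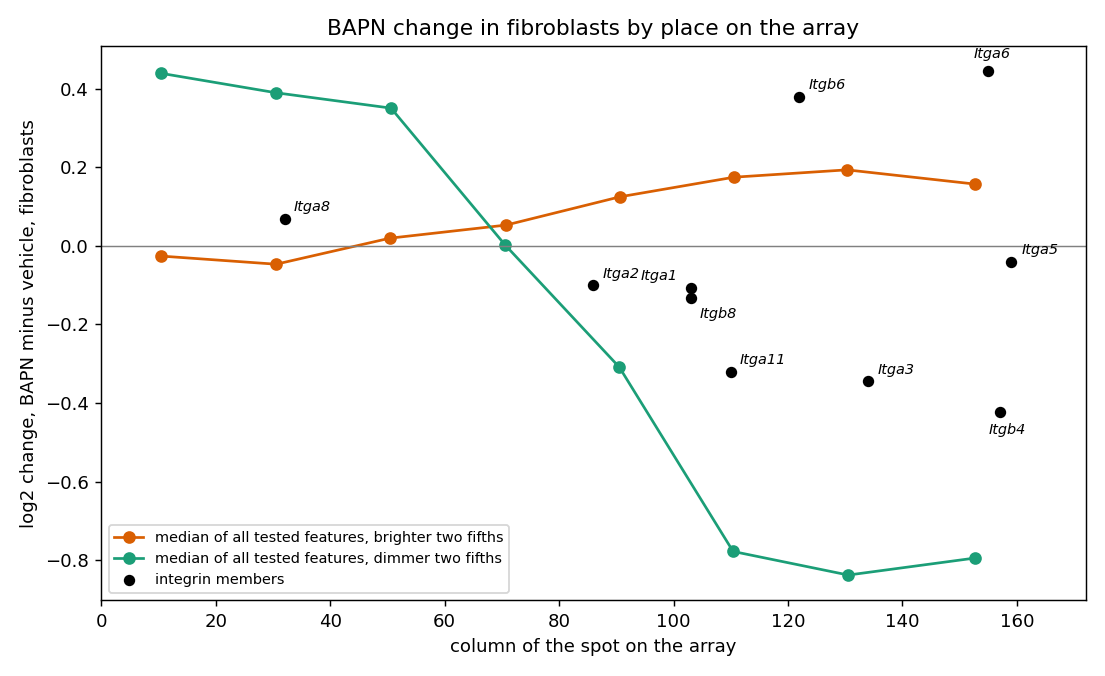
Log2 change with BAPN in fibroblasts (y axis) by the column of the spot (x axis); lines are medians over bands of columns for the dimmer and the brighter features, and black points are the integrins. Medians of dim features run from above 0 on the left to below -0.7 on the right while those of bright features rise slightly, and Itga6 lies at 0.44 in column 155.

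Several members had both arrays of a replicate number at the top or the bottom of a cell type. Fibroblast arrays numbered 2 had the highest Itga8 (4.10 with BAPN and 4.30 with vehicle, against 2.18 to 2.79 on the other 5 arrays) and the lowest Itga11 (2.01 with BAPN and 2.10 with vehicle, against 3.53 to 4.42). They also had the highest Itga2 (-2.72 and -2.27) and the lowest Itga3 (-1.57 and -1.26). So 4 of 10 members had both arrays numbered 2 at an extreme of the fibroblast arrays, as did 8.99% of 34287 features. For number 1 it was 3 of 10 members (Itgb8 highest, Itga5 and Itgb6 lowest) against 8.44% of features, and for number 4 it was 1 of 10 (Itga8 lowest) against 9.30%. The summed level of epithelial markers was also lowest on fibroblast arrays 2, at 1.14 with BAPN and 1.40 with vehicle, against 5.12 to 18.2 on the others. So was that of the fibroblast list within each treatment (1438 with BAPN and 1312 with vehicle), while that of the 6 macrophage and leukocyte markers that are not integrins was highest, at 33.4 with BAPN and 31.4 with vehicle, against 17.2 to 21.3 on the others.

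In ATII cells the arrays numbered 1 were the extreme pair. They had the highest Itgb6 (3.73 with BAPN and 3.37 with vehicle), Itgb4 (3.33 and 2.84), Itga3 (3.26 and 3.24) and Itga2 (0.43 and 0.56), and the lowest Itga5 (4.56 and 4.47) and Itga6 (5.04 and 5.01). That is 6 of 10 members, against 14.2% of features. The arrays numbered 4 had the lowest Itgb6, Itgb4, Itga3 and Itga2, which is 4 of 10 members against 9.96% of features, and those numbered 3 had the highest Itga11 and the lowest Itga8, 2 of 10 against 6.70%. Epithelial markers had their highest summed levels on the ATII arrays numbered 1 (865.9 with BAPN and 744 with vehicle, against 604 to 731 on the others) and the fibroblast list had its lowest (1287 with BAPN and 1166 with vehicle). Both arrays of each such pair lay on the same slide, which also held arrays of other numbers. What sets same-numbered arrays apart was not tested, and the labels do not say that a number marks a shared animal or culture. These are descriptions chosen after the values were seen.

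**Figure D5:**
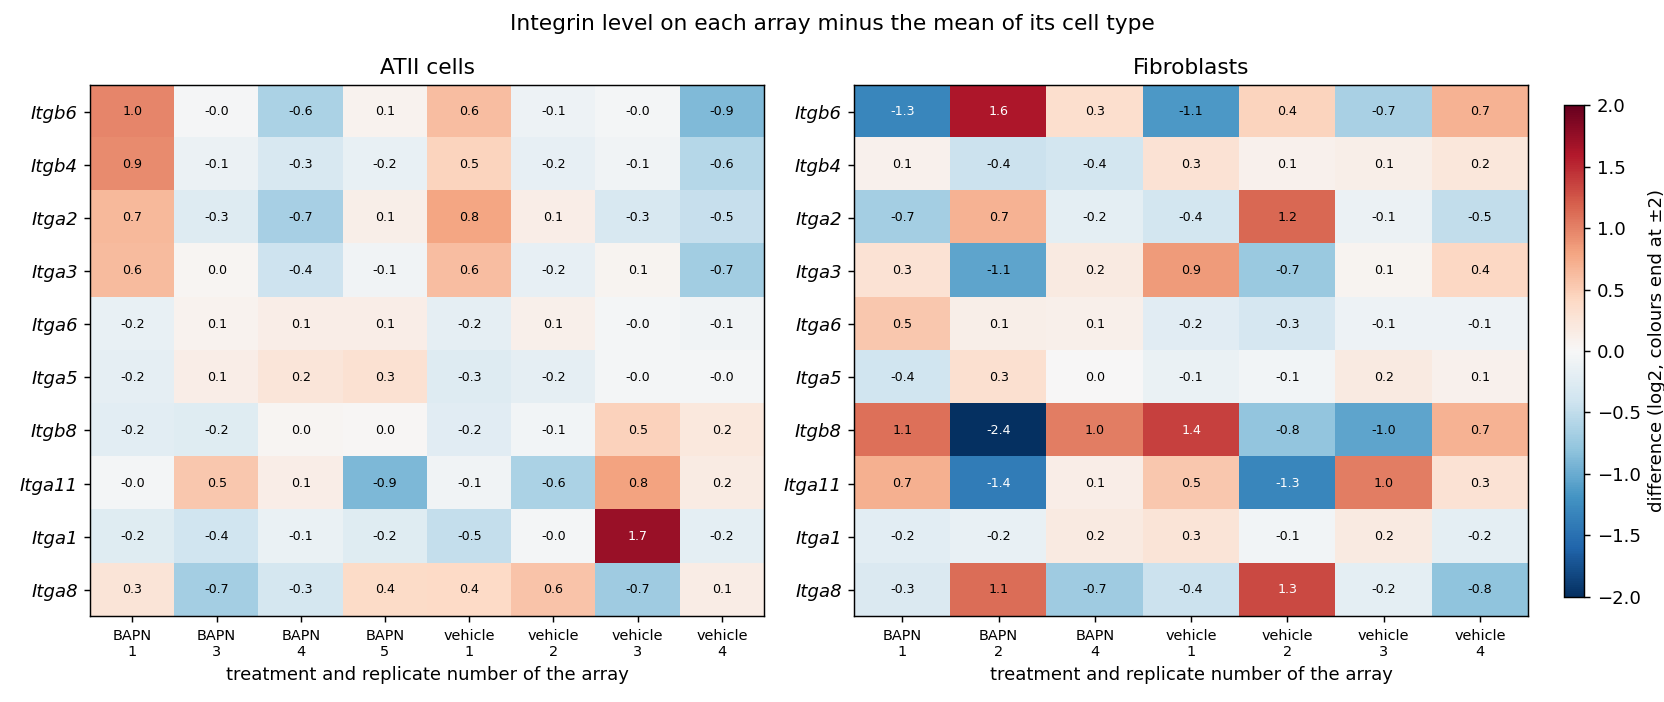
Level of each integrin on each array minus the mean of its cell type (colour and printed value, log2), with ATII cells on the left and fibroblasts on the right. In ATII cells the columns numbered 1 are high for Itgb6, Itgb4, Itga2 and Itga3; in fibroblasts the columns numbered 2 are high for Itga8 and Itga2 and low for Itga11 and Itga3.

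Of the other integrin subunits, 16 had a probe and 14 were tested. On BAPN arrays 2 were higher and 5 lower in ATII cells, and on vehicle arrays, which the values below are from, 2 were higher and 8 lower. Itgb3, a beta partner of Itgav and of the platelet receptor, rose by 4.05 ± 0.18 (limma adjusted p = 3.23e-09, 16.5-fold) and its second probe by 3.90. Itga9 rose by 0.61 ± 0.15. Itga4, a receptor of fibronectin and of vascular adhesion molecules, was lower by -3.92 ± 0.50 (limma adjusted p = 4.66e-05), and Itga10, a collagen receptor of cartilage, by -1.35 ± 0.15. The leukocyte chains Itgax (-1.73 ± 0.42), Itgb7 (-1.46 ± 0.29), Itgb2 (-1.16 ± 0.26) and Itgam (-1.01 ± 0.20), the platelet chain Itga2b (-1.13 ± 0.28) and Itgb5 (-0.54 ± 0.17) were also called lower. Of the 6 macrophage and leukocyte markers that are not integrins, with the summed levels given above, 5 were called lower in ATII cells and Cd14 higher (1.08 ± 0.30), and their part in these changes was not tested. Of the 3 probes of Itgam only the brightest was called.

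The partners shared by most members did not pass on the probes that stand for them. Itgb1, the beta chain that pairs with every alpha member here, changed by 0.18 ± 0.12 on vehicle arrays (limma adjusted p = 0.303) and Itgav by 0.39 ± 0.15 (adjusted p = 0.0766). The dimmer Itgb1 probe was lower in ATII vehicle (mean 3.18) than in fibroblast vehicle arrays (3.51), but higher in ATII BAPN (3.62) than in fibroblast BAPN arrays (3.21). The dimmer Itgav probe changed by 0.04 ± 0.14 on vehicle arrays. Itga7 (0.70 ± 0.38) and the brightest of 3 Itgal probes (-0.57 ± 0.23) did not pass either, though another Itgal probe was called lower in the limma fit per probe (-1.18 ± 0.20, adjusted p = 0.000568), and Itgad and Itgae were not well above background on enough arrays to be tested.

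Ligands were counted in the same fit. Of 15 laminin and basement membrane genes, 4 were higher and 5 lower in ATII cells on vehicle arrays, with a median log2 change of 0.22. Lamb3 (7.32 ± 0.28) and Lama3 (2.12 ± 0.21), which encode laminin chains of epithelia, rose, and Nid2 (-3.06 ± 0.18), Lama2 (-1.75 ± 0.23) and Lamb2 (-1.72 ± 0.15) fell. Of 13 collagen genes tested, 2 were higher and 4 lower, with a median of -0.07. Col4a4 rose by 2.65 ± 0.19, and Col4a3, well above background on 0 of 7 fibroblast arrays, had an ATII level at least 9.41-fold that of fibroblasts. Col6a1 (-1.02 ± 0.28), Col6a2 (-0.91 ± 0.26) and Col4a5 (-0.85 ± 0.26) fell.

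Of 12 genes in the list of fibronectin and other matrix ligands, not all of which carry the RGD motif, 3 were higher and 2 lower, with a median of 0.01. Npnt, which encodes nephronectin, the ligand of Itga8, was lower in ATII cells (-2.44 ± 0.25, limma adjusted p = 7.57e-06), as Itga8 was. Thbs1 was lower by -0.72 ± 0.12, Spp1 (1.76 ± 0.32) and Fbn2 (1.22 ± 0.37) were higher, and Egfl6 was at least 2.62-fold higher. Of 8 latent TGF-beta genes, 2 were higher and 3 lower, with a median of 0.21. Tgfb2 (1.67 ± 0.25) and Tgfb1 (1.49 ± 0.15) rose, while Lrrc32, which tethers latent TGF-beta to the cell surface, fell by 1.54 on the log2 scale, Tgfb3 by 0.77 and Ltbp2 by 0.69.

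Inside the cell, 3 of 26 adhesion adaptors tested were higher and 10 lower, with a median of -0.22. Fermt1, the epithelial kindlin that activates integrins, rose, with a fitted change of 6.24 ± 0.78 that rests on fibroblast vehicle signals of which 1 of 4 was well above background. On BAPN arrays, with 0 of 3 fibroblast signals above background, its ATII level was at least 45.1-fold that of fibroblasts. Ptk2b (1.70 ± 0.15) and Tln2 (1.24 ± 0.18) also rose, and Lims2 (-2.70 ± 0.14), Parvb (-1.59 ± 0.28) and Fermt3 (-1.54 ± 0.33), the kindlin of blood cells, fell. Of 7 hemidesmosome and tetraspanin genes, Cd9 (0.55 ± 0.14) and Cd82 (0.54 ± 0.12) were higher and Plec, which links Itgb4 to keratin, was lower (-0.35 ± 0.12). With BAPN, 0 genes of these lists were called in ATII cells. In fibroblasts 2 were, Vtn (-0.91 ± 0.24, limma adjusted p = 0.0291) and Rsu1 (0.33 ± 0.10, adjusted p = 0.0479), in a comparison that called 13% of features. Further probes of Itgal (-1.02, limma fit per probe, adjusted p = 0.0279) and Itgam (-1.13, adjusted p = 0.0476) were called lower there. They lay in columns 111 and 142, and the probes that stand for these genes did not pass.

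The genes whose level followed each member most closely were found by Pearson correlation over the 15 arrays among 18386 other named genes. This is a description in which the difference between the cell types counts most. For Itgb6 they were Mmp15, Endod1 and Sel1l3 (r of 0.992 to 0.994), for Itgb4 Slc29a4, Afap1l1 and Mall (0.998), for Itga3 Tmem184a, Cgn and Irx1 (0.990 to 0.994), and for Itga2 Rasgef1b, Nfatc2 and Ano1 (0.984 to 0.990). For Itga8 they were Tslp, Art4 and Mmp10 (0.987), for Itga1 Fsd1, Gm6402 and Fmn1 (0.950 to 0.967) and for Itga11 Ebf2, S1pr3 and Tbx15 (0.921 to 0.962). Itga6 was followed by Gm9892, Eif2s2 and Pxdn (0.9746 to 0.9813), Itga5 by H2al1e, Dock5 and Mblac1 (0.945 to 0.948) and Itgb8 by Vat1l, Nxnl2 and Pdlim3 (0.870 to 0.895). Itgb4 had the closest companions and Itgb8, near background, the loosest.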

How the data were processed

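Expression was measured on 15 one-colour Agilent mouse arrays labelled with Cy3. The deposited scanner files give intensities that, per the file headers, Agilent Feature Extraction 10.7.3.1 had background-subtracted. The deposited table of the whole series holds log2 values made by the authors; sorted values were equal between its columns to within 0.00322, each with a median of 5.96, as after quantile normalization, and each column correlated with its own array at 0.999 or more. Which other steps made that table is not given in the sources used here.

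The log2 of the processed intensity minus each array's 75th percentile was used, spots of a probe were averaged, and the brightest probe stood for its gene. Probes were named through RefSeq accessions (27428 probes) or the files' symbols (3483, and 507 older ones), and 24263 stayed unnamed. Only features well above background on 3 or more of the arrays compared were tested. limma 3.58.1 (R 4.3.3) was fitted over 15 arrays with a mean per group (11 residual degrees of freedom), with Benjamini-Hochberg adjustment over all features, and tested on simulated data. Permutation tests and correlations used scipy 1.17.1 and numpy 2.4.6 in Python 3.11.15.

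The members and gene lists were chosen with earlier results of these data known. Every member probe and every other integrin with a probe is named, and of each further list up to 3 genes in each direction, except that 1 gene is not reported here. On vehicle arrays, deviations of same-numbered ATII and fibroblast arrays correlated at 0.24 to 0.34, and arrays of different number on the same slide at 0.21 to 0.32. The numbers were treated as pairs there only in an alternative fit with a replicate block. The changes, errors and p-values given for the cell types come from the fit without pairs. On BAPN arrays there were only 2 such pairs (0.15 and 0.26), too few to decide. Between treatments, same-numbered pairs correlated at -0.08 to 0.14 in fibroblasts and at -0.16 to 0.28 in ATII cells. The numbers were not taken as pairs in either case. Alternatives were other scaling, background, filters, slide and replicate blocks, single slides, left-out arrays and position corrections. Levels are not compared between probes. No array of the series was labelled as fibroblast BAPN number 3. Probe coordinates are those of the files, on mm9.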

Additional observations from a re-analysis of the deposited data

Results flagged for a closer look

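Itgb4 on ATII BAPN array 1 stood at 3.33, against 2.07 to 2.27 on the other 3 ATII BAPN arrays, a gap larger than Dixon's 95% limit for 4 samples. It was the only one of 39 groups of values examined that passed this limit, and chance gives about 1 in 20. The same array had the highest Itgb6, Itga3 and Itga2 of its group, and on it the summed level of airway and basal cell markers was 22.1, against 7.49 to 10.3 on the other ATII BAPN arrays. The part of those cells in the Itgb4 value was not tested.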

How the results depend on the processing

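Between the cell types, 173 of 191 alternative values of the members on BAPN arrays and 210 of 219 on vehicle arrays stayed on the same side of the threshold, and 0 called values changed sign. On slide 1 alone 6059 features were called on vehicle arrays, and on slide 2 alone 1278 on BAPN arrays, with 3 members, and 3906 on vehicle arrays. The slide 2 count on BAPN arrays rests on a single ATII BAPN array, so no conclusion is drawn from it. No such count is given for slide 1, which held a single fibroblast BAPN array. With 1 array of the groups compared left out, 8 to 9 of 9 members were called on BAPN arrays. Features called there were 7459 to 11275 (23.7% to 35.4%). On vehicle arrays 8 to 9 of 10 members and 8631 to 9692 features (26.9% to 30.1%) were called. The replicate block, used as pairing on vehicle arrays, gave 9066 features (27.9%) and 9 of 10 members and changed no member's call there. On BAPN arrays, where the numbers were not taken as pairs, the block gave 6727 features (20.8%) and 8 of 9 members. Itga6 was then not called (0.47, limma adjusted p = 0.0930) and Itga11 was called (-2.0028, adjusted p = 0.000922). Itga11 on BAPN arrays was called under 8 alternatives.

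With BAPN in fibroblasts, 0 members were called under quantile scaling, normexp background correction, the authors' table, the position and brightness correction, no filter or the replicate block. The same held on slide 2 alone, with only the groups compared, and with agreement of every probe. It held too without any 1 fibroblast array, and without both fibroblast arrays numbered 2 or both ATII arrays numbered 1. The Itga6 log2 change ran from 0.25 to 0.71 and its limma adjusted p from 0.0320 to 0.307. Features called were 0 without both fibroblast arrays numbered 2, 0 with the replicate block, 276 on slide 1, 2304 with only the groups compared, and from 893 without BAPN array 2 to 4210 without BAPN array 1; the cause was not tested. With BAPN in ATII cells 2579 features were called on slide 2 alone and 0 with any 1 ATII array left out. For the difference between the BAPN effects, 1 feature was called with the position correction or without both fibroblast arrays numbered 2, 2 with the position and brightness correction or with no filter, 122 on slide 1, and 0 to 294 with an array left out. Slide 1 held a single fibroblast BAPN array and slide 2 a single ATII BAPN array. The counts of 276, 2579 and 122 features by slide each rest on such a group, so no conclusion is drawn from them. Signals near background limit Itgb8 and the fibroblast values of Itgb6. The alternatives that left out pairs of same-numbered arrays and the position and brightness correction were chosen after seeing the data.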
